A study of Drosophila melanogaster with 9 samples.

Results

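Voltage-gated potassium channels open when the membrane is depolarized and let potassium leave the cell, which brings the voltage back down. In fly photoreceptors, where light depolarizes the cell through TRP channels, the potassium currents carried by Shaker and Shab channels are known to shape the size and speed of the voltage response. In all, 10 genes of this family were followed here in nuclear RNA from photoreceptors, to show which of them took the most reads. They are the Shaker-type channels Sh, Shab, Shaw and Shal, the M-type channel KCNQ, the EAG-type channels eag, sei and Elk, the calcium- and voltage-gated channel slo, and Hk, the beta subunit that binds Shaker. The 10 genes were chosen by symbol, not by their counts, but with earlier results of these data known. Each was found by its FlyBase identifier among the 13947 genes counted.

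The counts came from 3 libraries, replicates 1, 2 and 3, of photoreceptors that expressed an shRNA against the H3K36 methyltransferase Set2 (shSet2). The flies were males aged 10 days, collected at zeitgeber time 6, and carried w (w1118 in the methods of the study), ry506, rh1-GAL4 and UAS-GFP-Msp300KASH at attP2 together with the UAS shRNA against Set2, which is a single shRNA line. Rh1-Gal4 is active in the outer photoreceptors, so nuclei tagged with GFP were pulled from head homogenates and 10 ng of their RNA went into each library. Photoreceptors expressing an shRNA against mCherry (shControl) served as the control of the study. RNA-seq of shControl and the ATAC-seq libraries were not analysed here, so each value describes shSet2 photoreceptors alone and none measures an effect of Set2. The labels do not say whether the replicates came from separate groups of flies, so the spread between them may be partly technical.

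The libraries held 3657491, 3794547 and 4960498 counts in replicates 1, 2 and 3. Normalized read counts are given as counts per 1000000 counts (CPM), on totals scaled by TMM. In the bulk RNA, fewer cells of a type and less RNA per cell cannot be told apart. Set2, the target of the shRNA, was at 85.8 ± 11.6 CPM (SD, n = 3). All 8 photoreceptor markers were well above the minimum of 10 counts, with a summed level of 57130 to 59533 CPM across libraries. Markers of other cells were counted too, at a summed 143 to 186 CPM for 5 markers of other neurons, 223 to 264 CPM for 5 glial markers and 16.9 to 54.5 CPM for 4 muscle markers. The muscle actin Act88F and the fat body gene Fbp1 were at 0 in every library, whereas the fat body gene apolpp reached 646 ± 119 CPM.

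Every one of the 10 genes had at least 10 counts in each of the 3 libraries, a mark that 41.6% of all genes in the table reached. The family took 3.17% ± 0.16 (SD, n = 3) of all counts. This share was 3.04% in replicate 1 (95% Wilson interval 3.02% to 3.05%), 3.12% in replicate 2 (3.11% to 3.14%) and 3.34% in replicate 3 (3.33% to 3.36%). These intervals cover counting error only, and the libraries differed by more than that. Sh alone held 59.4% ± 1.54 of the family's counts, and Sh, slo, eag and Hk together held 92.2% ± 0.53. The remaining 6 genes, Shab, KCNQ, Shal, sei, Shaw and Elk, shared the rest.

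**Figure D1:**
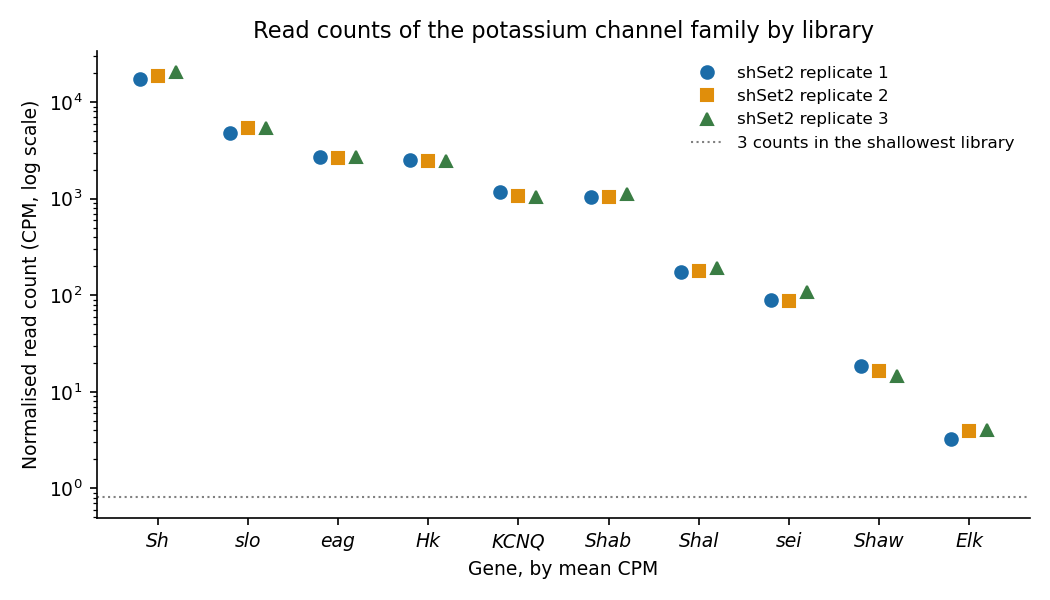
Normalized read count (CPM, log axis) of the 10 family genes in the 3 shSet2 libraries, 1 symbol per library, with genes ordered by mean CPM and a dotted line at 3 counts in the shallowest library. Sh lies between 17467 and 20531 CPM and Elk between 3.25 and 4.05 CPM, and the libraries lie close together within each gene.

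Sh (FBgn0003380), the founding voltage-gated potassium channel and the source of a fast, inactivating A-type current, stood at the top of the family. It had 64466, 70065 and 101313 counts in replicates 1, 2 and 3, which is 17467, 18535 and 20531 CPM. Its mean of 18844 ± 1555 CPM placed it at rank 2 of the 5802 genes that reached 10 counts in each library, called expressed genes here. By itself Sh took 1.88% ± 0.14 (SD, n = 3) of all counted reads. The gene lies on chromosome X from 17924307 to 18063247 in Release 6 plus ISO1 MT, a span of 139 kb that RefSeq annotates with 17 transcripts. The 3 genes nested in this span took few counts by comparison. CG12672, the highest of them, had 0.81% as many counts as Sh. These are counts given to CG12672 itself, so they cannot show how many reads of nested genes were assigned to Sh.

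Long genes collect more reads, and levels of different genes were therefore compared per kilobase (kb) of gene span. The span includes introns, and lengths of exons alone were not used here. Nuclear RNA holds both spliced and nascent transcripts, and the study states that its reads include intronic ones but come mostly from spliced transcripts. Whether intronic reads were assigned to genes in the deposited counts is not given in the sources used here, so the span can understate a gene with long introns. The family is made of long genes, with a median span of 47.8 kb against 4.0 kb for all expressed genes, and each of the 10 spans was above that median.

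On this scale Sh was again first. It was at 126, 133 and 148 CPM per kb in replicates 1, 2 and 3, a mean of 136 ± 11.2 (SD, n = 3). The order of mean levels below it was slo, Hk, eag, KCNQ, sei, Shab, Shal, Shaw and Elk, with 106, 82.2, 49.2, 23.4, 16.8, 16.6, 10.2, 1.50 and 0.071 CPM per kb. Of the 9 pairs of neighbours in this order, 8 did not overlap between libraries, the lowest library of the higher gene being above the highest library of the lower gene. The exception was sei and Shab, whose ratio was 1.01 ± 0.086 and lay below 1 in replicates 1 and 2. Over all 45 pairs of family genes, 44 did not overlap, beside 85.9% of all pairs of expressed genes. With 3 values a gene, an exact two-sided permutation test cannot give a p-value below 0.1, and no test of the order was made.

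**Figure D2:**
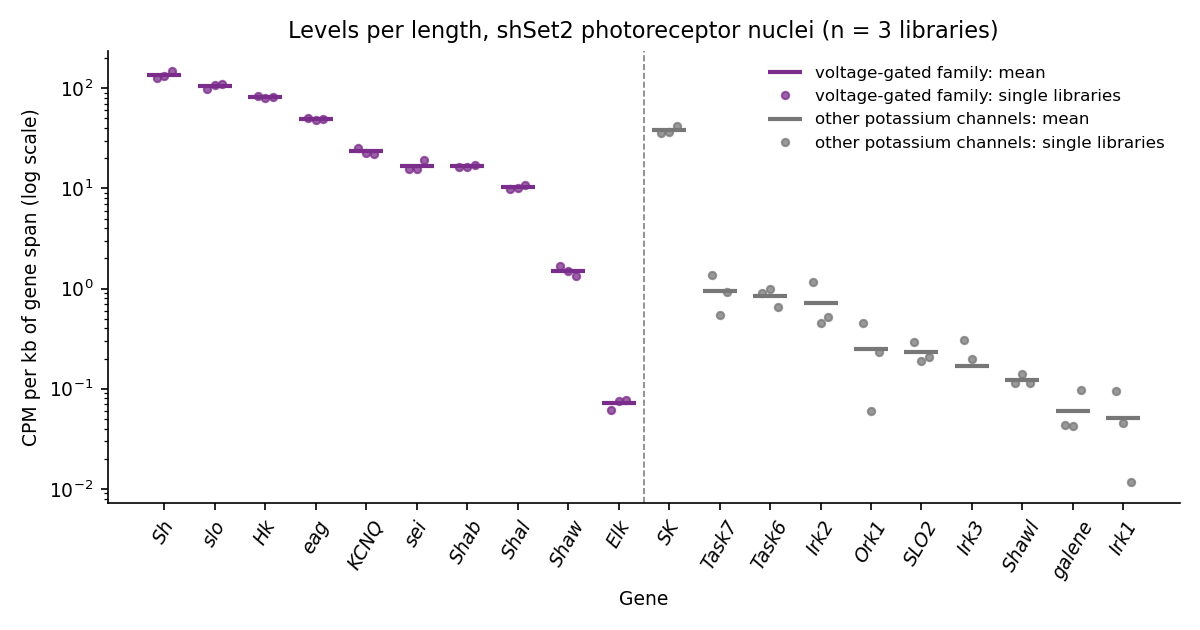
CPM per kb of gene span (log axis) in shSet2 photoreceptor nuclei for the 10 family genes, left of the dashed line, and for other potassium channels, right of it; bars are means and points single libraries, with libraries at 0 (Irk3 in replicate 3) and sand, at 0 in every library, not drawn. The 8 highest family genes lie at 10.2 CPM per kb or more, a level that SK alone reaches among the other potassium channels.

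Among the Shaker-type channels the levels were far apart. Shab (FBgn0262593), which carries a slowly inactivating delayed rectifier current, had 3869, 3963 and 5518 counts in replicates 1, 2 and 3. That is 1048, 1048 and 1118 CPM, or 16.6 ± 0.62 CPM per kb over its 64.6 kb span (3L, 2895017 to 2959579). Sh was 8.16 ± 0.40 times as high as Shab per kb, and the ratio stayed between 7.74 and 8.53 in single libraries. Shal (FBgn0005564) encodes an A-type channel found in the soma and dendrites of neurons. It had 645, 679 and 937 counts, a level of 175, 180 and 190 CPM, and Sh was 13.2 ± 0.53 times as high per kb. By CPM both distances were larger, with Sh at 18844 ± 1555, Shab at 1072 ± 40.3 and Shal at 181 ± 7.72.

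Shaw (FBgn0003386) encodes a channel whose opening depends only weakly on voltage. It had 68, 62 and 72 counts in replicates 1, 2 and 3, or 18.4, 16.4 and 14.6 CPM. Its 16.5 ± 1.92 CPM lay slightly below the median of 18.6 CPM over all expressed genes, and its 1.50 ± 0.17 CPM per kb was below their median of 5.39. The ratio of Sh to Shaw per kb was 91.7 ± 18.2. The steps between Sh, Shab and Shal were thus nearly the same in each library, whereas the distance to Shaw ranged from 74.8 to 111.

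Hk (FBgn0263220) encodes the cytoplasmic beta subunit, a protein of the aldo-keto reductase fold that assembles with Shaker. It had 9326, 9187 and 12228 counts in replicates 1, 2 and 3. These are 2527, 2430 and 2478 CPM, and the largest value was only 1.04 times the smallest. Hk spans 30.1 kb (X, 10233347 to 10263485) and was at 82.2 ± 1.60 CPM per kb, the third level of the family. Per kb, Hk stood at 0.609 ± 0.055 of Sh, with 0.667 in replicate 1, 0.604 in replicate 2 and 0.556 in replicate 3. The level of Sh moved this ratio more than that of Hk, because Sh was 1.18 times as high in its highest library as in its lowest. An antisense gene, asRNA:CR43959, lies within Hk, and its reads were not analysed here.

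The channel gene slo (FBgn0003429) encodes the BK-type channel, which needs both calcium and depolarization to open. It had 17868, 20222 and 26886 counts in replicates 1, 2 and 3, or 4841, 5350 and 5448 CPM, at rank 28 of the expressed genes. The gene spans 49.1 kb (3R, 24662491 to 24711595), overlaps no other annotated gene and has 23 RefSeq transcripts, the most of the 10 genes. Its 106 ± 6.63 CPM per kb was closest to Sh, at 0.784 ± 0.033 of the Sh level. In each of the 3 libraries slo was below Sh and above Hk.

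KCNQ (FBgn0033494) encodes a slowly activating channel of the M-current type. It had 4358, 4001 and 5077 counts in replicates 1, 2 and 3, or 1181, 1058 and 1029 CPM. In CPM its mean of 1089 ± 80.6 was close to that of Shab (1072 ± 40.3), and the ranges of both genes overlapped. Per kb KCNQ was higher, at 23.4 ± 1.73 CPM per kb. The gene mlt lies within KCNQ and had 8.93% as many counts as KCNQ, and CG18011 overlaps one end of it, with 1.85% as many. Without knowledge of the strand of the reads, those of KCNQ and of the antisense gene asRNA:CR45133 within it cannot be told apart.

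The EAG-type channels are named after eag, whose mutants shake their legs under ether, and they differed most within a branch. The gene eag (FBgn0000535) had 10078, 9970 and 13244 counts in replicates 1, 2 and 3, which is 2731, 2638 and 2684 CPM. Its 2684 ± 46.6 CPM gave the smallest spread of the family, with a coefficient of variation of 1.73%. Over 54.5 kb (X, 14955477 to 15009989) its level was 49.2 ± 0.85 CPM per kb. No other annotated gene overlaps it.

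The channel gene sei (FBgn0003353), the fly counterpart of the human ERG channel, is known for mutants that seize at high temperature. It had 327, 330 and 534 counts in replicates 1, 2 and 3, or 88.6, 87.3 and 108 CPM. With a span of 5.63 kb it is the shortest gene of the family, and its place in the order depends on the scale. By CPM sei was at 94.7 ± 11.7, the 8th of the 10 genes, but per kb it was the 6th, at 16.8 ± 2.08 CPM per kb. Replicate 3 stood above both other libraries. The sodium channel gene ppk29, which overlaps sei by 119 bases, was also highest there, with 12, 13 and 52 counts in replicates 1, 2 and 3. The neighbour gammaSnap1 overlaps sei over 1493 bases and had 52, 67 and 94 counts. Without the strand of the reads, sei and the genes that overlap it cannot be told apart where they overlap.

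Elk (FBgn0011589), the EAG-like channel, was the lowest gene of the family. It had 12, 15 and 20 counts in replicates 1, 2 and 3, or 3.25, 3.97 and 4.05 CPM. These counts were above the floor of 3 counts, which equals 0.820, 0.791 and 0.605 CPM in the same libraries. The expected counting error of 25.8% was larger than the observed coefficient of variation of 11.7%, so at this depth no difference between libraries was detectable. Per kb, eag was 2.95 ± 0.34 times as high as sei and 699 ± 98.6 times as high as Elk. The ratio of eag to sei depends on the scale and was larger by CPM, at 2684 against 94.7. PPO1, a prophenoloxidase gene that lies within Elk, had 20, 43 and 44 counts, more than Elk itself in each library, and the count of Elk is uncertain for that reason.

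**Figure D3:**
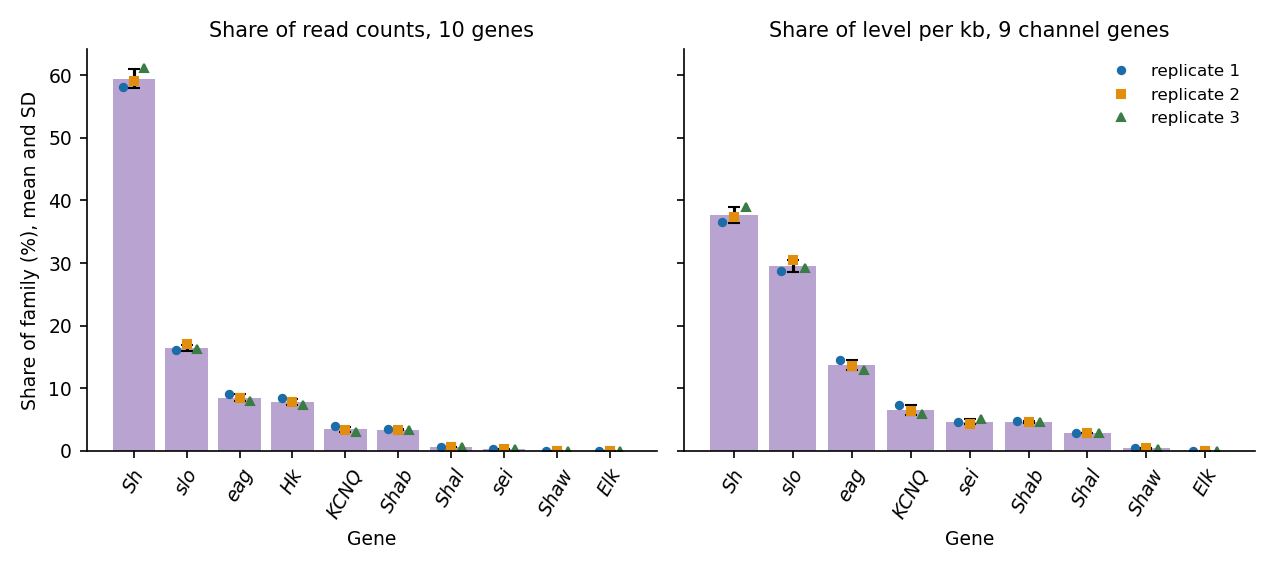
Share of the family (%), as the mean of the 3 shSet2 libraries with the SD as error bars and single libraries as symbols, of read counts over all 10 genes (left) and of the summed CPM per kb over the 9 channel genes without Hk (right). Sh takes 59.4% of the counts but 37.7% of the level per kb, where slo takes 29.5% and eag 13.7%.

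Which channel dominates was the same on both scales, but by how much was not. Sh held 37.7% ± 1.23 (SD, n = 3) of the summed level per kb of the 9 channel genes. The same share of their CPM, with no correction for length, was 64.5%. By level per kb, slo followed with 29.5% ± 0.92 and eag with 13.7% ± 0.81. KCNQ held 6.54% ± 0.79, sei 4.67% ± 0.37 and Shab 4.62% ± 0.097. Shal, Shaw and Elk held 2.85%, 0.42% and 0.020%. In every library Sh, slo and eag were the 3 highest channel genes on either scale.

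Most of the family was high among expressed genes. Of the 10 genes, 8 were above the median CPM and 8 above the median CPM per kb of expressed genes. The median member was at 20.1 CPM per kb, against 5.39 for all 5758 expressed genes with an annotated span, and at 1081 CPM against 18.6. Shaw and Elk were the exceptions on both scales. Sh, slo, eag and Hk were at ranks 2, 28, 60 and 68 by CPM, and KCNQ and Shab were at ranks 161 and 166. Per kb the ranks among these 5758 genes were further down, 89 for Sh, 114 for slo 161 for Hk and 709 for KCNQ.

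**Figure D4:**
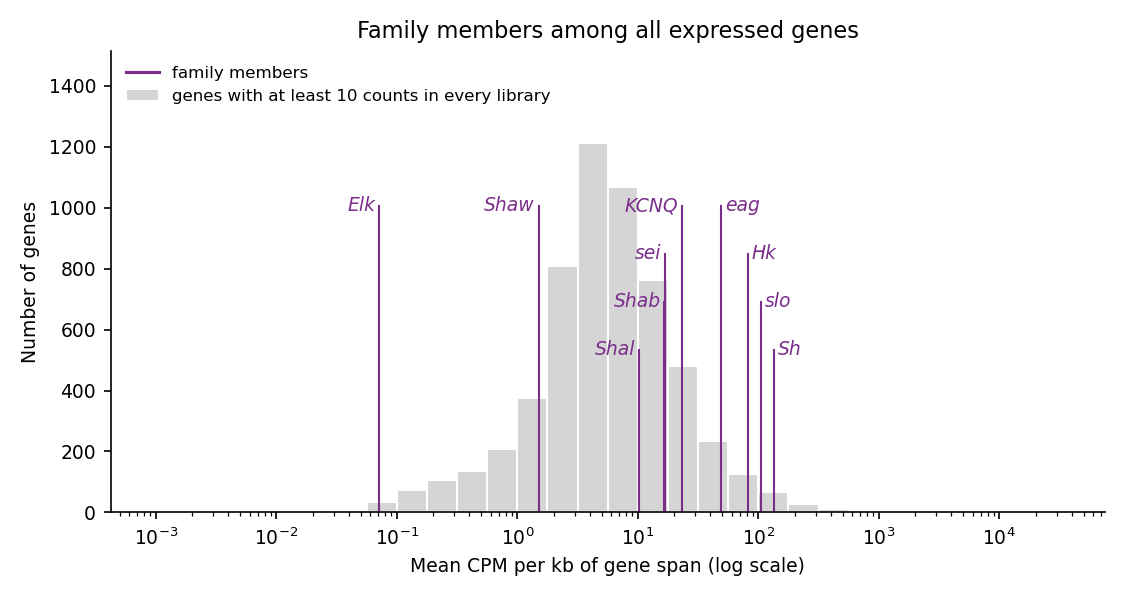
Number of genes (bars) by mean CPM per kb of gene span (log axis) among genes that reached 10 counts in each shSet2 library, with the 10 family genes as vertical lines whose heights carry no value. Sh, slo, Hk and eag lie in the upper tail, at 136, 106, 82.2 and 49.2 CPM per kb, and Elk lies in the lower tail at 0.071.

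The phototransduction genes give a scale for these levels, with the opsin gene ninaE highest among the 8 markers at 4268 ± 550 CPM per kb. Sh, at 136 CPM per kb, was below the phospholipase C gene norpA, at 396 ± 18.3 CPM per kb, and the light-gated channel genes trpl and trp, at 981 ± 121 and 1624 ± 108. It was above the G protein gene Galphaq, at 41.4 ± 4.64. These markers span 1.68 kb to 42.8 kb, all shorter than Sh. By CPM Sh was instead above all 8 markers, at 18844 ± 1555 against 16942 ± 782 for norpA, the highest of them. The place of Sh among these genes thus depends on the scale.

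Markers of other cell types give the scale at the low end. Shaw, at 1.50 CPM per kb, lay within the range of the 5 markers of other neurons, which ran from 0.209 for ChAT to 3.70 for VGlut, and Elk, at 0.071, lay below it. Shal, at 10.2, was above all 5 of those markers but within the range of the 5 glial markers, 0.828 for moody to 12.6 for nrv2. Per kb the other 7 channel and subunit genes were above every marker of these neuron and glia lists. By CPM, sei, at 94.7, was below the glial marker nrv2, at 114, whereas Shal, at 181, was above all 5 glial markers. Per kb these 7 genes were not all above the markers of other lists. The fat body gene apolpp, at 39.6 CPM per kb, and the pigment cell gene Pdh, at 30.4, were above KCNQ, sei and Shab. In replicate 2 alone Pdh was below KCNQ, at 20.9 against 22.8. Rh3, an opsin gene of inner photoreceptors, at 11.7, and the fat body gene Lsp2, at 10.8 ± 7.03, were above Shal by mean. Lsp2 was at 4.05, 10.3 and 18.1 CPM per kb in replicates 1, 2 and 3. Shal, at 9.86, was above it in replicate 1. By CPM, KCNQ, at 1089, and Shab, at 1072, were above apolpp, at 646, and Pdh, at 32.4, and sei lay between apolpp and Pdh. Shal was by CPM above Rh3, at 16.3, and Lsp2, at 26.7. The part that RNA of other cells has in these values was not tested.

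The SD of log2(CPM + 1) between libraries was 0.03 for eag and Hk at the low end and 0.17 for sei at the high end, with a median of 0.10 over the 10 genes. This median rests on which libraries are kept, and was 0.043 without replicate 1, 0.050 without replicate 3 and 0.13 without replicate 2. All 10 were below the median of 0.18 over the expressed genes. Genes with few reads vary more by counting alone, and most of the family has many. Set beside only the 1782 genes with a mean of at least 50 CPM, a comparison chosen after the values were seen, 6 of the 8 members at that level were below the median of 0.12, and Sh and sei were not.

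**Figure D5:**
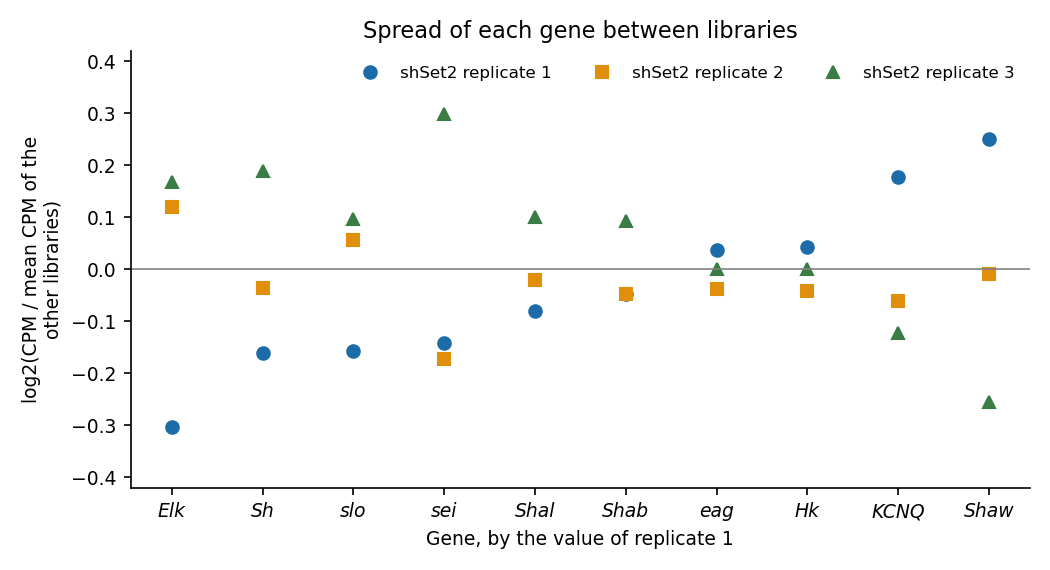
log2 ratio of the CPM in each shSet2 library to the mean CPM of the other libraries for the 10 family genes, ordered by the value of replicate 1; the horizontal line marks no difference. Shaw and KCNQ are highest in replicate 1, at 0.25 and 0.18, whereas Sh and slo are lowest there, at -0.16 and -0.16.

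The libraries did not shift all genes one way. Sh, slo, sei, Shab, Shal and Elk were highest in replicate 3, and Hk, eag, KCNQ and Shaw were highest in replicate 1. Sh in replicate 3 was 0.19 above the mean of the other libraries on the log2 scale, and KCNQ was 0.12 below. For Sh, with a counting error of 0.364%, the observed coefficient of variation of 8.25% was much larger than counting error, and the same held for slo (6.25% observed, 0.689% expected) and KCNQ (7.39% and 1.50%). For Shaw, the observed 11.6% was within the 12.2% expected from counting. Replicate 1 also had the highest summed level of the markers of other neurons, at 186 CPM against 143 and 144 in replicates 2 and 3, and of glia, at 264 CPM against 229 and 223. The 5 markers of each of these lists all passed the minimum, and none was at 0. The glial markers moody, Gs2 and Eaat1 were highest in replicate 1, but nrv2 and repo were not. In replicates 1, 2 and 3, nrv2 was at 116, 108 and 118 CPM and repo at 4.06, 4.23 and 3.04 CPM. The 4 muscle markers, of which 2 passed and Act88F was at 0, summed to 54.5 CPM in replicate 1 against 16.9 and 22.5. The 3 fat body genes, of which 2 passed and Fbp1 was at 0, summed to 786 CPM in replicate 1 against 643 and 588. This sum was mostly apolpp, at 776, 618 and 543 CPM in replicates 1, 2 and 3. Lsp2 went the other way, at 10.0, 25.4 and 44.8 CPM. The 3 pigment and cone cell markers, 2 of them past the minimum, summed to 75.3 CPM against 52.4 and 58.4, and the 4 opsins of inner photoreceptors, all past it, to 51.2 CPM against 36.5 and 46.6. The 3 hemocyte markers, 2 of them past the minimum, were instead highest in replicate 3, at 34.0 CPM, against 31.2 and 27.0 CPM in replicates 1 and 2. The part of these cells in the higher KCNQ and Shaw levels of replicate 1 was not tested.

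Potassium channels outside the family were mostly low. Of 11 such genes, 5 reached 10 counts in each library, namely SK, SLO2, Task6, Shawl and Irk2, a share near the 41.6% of all genes in the table. The median level of the 11 genes was 0.230 CPM per kb, against 20.1 in the family. SK, a small-conductance channel opened by calcium, was the exception. It had 8611, 9050 and 13338 counts in replicates 1, 2 and 3, or 38.2 ± 3.05 CPM per kb that lay between eag and KCNQ. Per kb SK was at 0.360 ± 0.019 of slo. SLO2, the other large-conductance relative of slo, had 103, 68 and 96 counts, and slo was 483 ± 130 times as high per kb. Shawl, the relative of Shaw, had 19, 24 and 25 counts. Of the inward rectifiers Irk1, Irk2 and Irk3 and the leak channels Ork1, sand, galene, Task6 and Task7, none had more than 28 counts in a library. The leak channel gene sand had 0 counts in every library, which allows up to 0.820 CPM in the shallowest.

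Genes listed as partners of ion channels were mostly high alongside Sh and slo. All 6 partner genes passed the minimum, beside 41.6% of all genes in the table, and their median level was 102 CPM per kb. Slob, which encodes a protein that binds Slo and changes its gating, had 20669, 28764 and 37128 counts in replicates 1, 2 and 3, at rank 19 by CPM. Its level was 209 ± 34.4 CPM per kb, 1.96 ± 0.21 times that of slo. The GPI-anchored protein of qvr, also called Sleepless, raises Shaker levels and activity. Its gene was at 444 ± 63.4 CPM per kb, 3.26 ± 0.21 times Sh, over a span of 9.10 kb. By CPM qvr, at 4037 ± 577, was instead below Sh, at 18844 ± 1555. The scaffold gene dlg1, whose product clusters Shaker at synapses, was at 69.6 ± 3.41 CPM per kb, and CaMKII and the calmodulin gene Cam were at 75.6 ± 4.72 and 128 ± 8.76. The low exception was tipE, which encodes an auxiliary subunit of sodium channels, at 5.62 ± 0.38 CPM per kb.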

How the data were processed

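Nuclear RNA was sequenced from immuno-enriched photoreceptors of shSet2 flies in 3 libraries. The authors deposited whole-number read counts for 13947 genes, without normalization. The submitters' processing notes name Trimmomatic, Bowtie2, STAR, SAMtools, deepTools and DESeq2 and the builds dm6 and BDGP6, without saying which step used which. The counting tool and its strand setting are not given in the sources used here. A blank row (1) was left out, and the table holds 0 columns of other samples.

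Counts were scaled with edgeR 4.0.16 (TMM on the 5802 genes with at least 10 counts in every library; factors 1.009, 0.996 and 0.995) in R 4.3.3, and with DESeq2 1.42.0 size factors as an alternative. Python 3.11.15, numpy 2.4.6, pandas 2.3.3, scipy 1.17.1 and matplotlib 3.10.9 did the rest. Symbols were matched for 13884 identifiers, and gene spans, transcripts and overlaps for 13871, from RefSeq's Release 6 plus ISO1 MT table. Neither exon nor coding lengths were used here, so the span, set as an alternative length, became the main one. The steps were tested on simulated counts. Depth gives a floor of 3 counts per library, for counting error only. Alternatives were another scaling, no length correction, other count minimums (1 and 50), a pseudocount of 0.1 in place of 1, and each replicate left out.

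The 10 genes, the lists of other channels, partners and markers, and the tests were chosen with earlier results of these data known. All 10 members are named; of the lists of other channels and partners, the counts and the highest or lowest genes are given, and of the marker lists the summed levels and some single genes. Other genes named, such as those overlapping a member, were chosen by position.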

Additional observations from a re-analysis of the deposited data

How the results depend on the processing

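No paired analysis was possible because the counts used here are of 1 group, shSet2, and nothing was set against it. The order by mean CPM per kb was the same with DESeq2's size factors, with unscaled totals and without replicate 1 or 2. Without replicate 3, Shab was above sei, and all 9 pairs of neighbours were apart, against 8 with every library. With no length correction the order was Sh, slo, eag, Hk, KCNQ, Shab, Shal, sei, Shaw and Elk, with 8 pairs apart, and Sh held 64.5% of the level of the channel genes, against 37.7% per kb. The correction itself makes this difference, since Sh is the longest gene. With a minimum of 50 counts, 9 of the 10 genes were counted, Elk being left out. The median SD of log2(CPM + 1) of the family was 0.10, and it ranged from 0.043 without replicate 1 to 0.13 without replicate 2, with 0.050 without replicate 3, so replicates 1 and 3 both decide much of this value; the cause was not tested. The median over other genes was 0.22 with no count minimum. The family's share of counts ranged from 3.08% without replicate 3 to 3.23% without replicate 1. None of the 20 levels under another scaling, or of the 30 with a replicate left out, moved by over 1 SD; leaving out 1 of 3 values can hardly do so. Coding and exon lengths were not run. Depth limits Elk, with at most 20 counts in a library.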

Other observations

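Voltage-gated channels for sodium and calcium, and related cation channels, were counted in the same libraries. The L-type calcium channel gene Ca-alpha1D had 22073, 21964 and 29307 counts in replicates 1, 2 and 3, or 239 ± 3.59 CPM per kb (SD, n = 3). The calcium channel gene cac, which triggers transmitter release at synapses, was at 69.5 ± 5.70 CPM per kb. Per kb Ca-alpha1D was thus above Sh, the highest potassium channel gene at 136 ± 11.2 CPM per kb, and cac lay between Hk and eag. By CPM the places differed. Ca-alpha1D, at 5910 ± 88.7 CPM, was below Sh, at 18844 ± 1555, and cac, at 3742 ± 307, lay between slo and eag. The sodium channel gene para, needed for action potentials, was far lower, at 1.49 ± 0.18 CPM per kb, with 483, 435 and 506 counts. Its level per kb was close to the 1.50 ± 0.17 CPM per kb of Shaw. By CPM para, at 116 ± 14.2, was above Shaw, at 16.5 ± 1.92. The T-type calcium channel gene Ca-alpha1T was at 0.955 ± 0.074 CPM per kb, and the cyclic nucleotide-gated relatives Ih and Cngl were at 2.12 ± 0.62 and 0.852 ± 0.15. All 6 genes reached 10 counts in each library, beside 41.6% of all genes in the table. The part that RNA of other neurons has in the low levels was not tested.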
